A study of Mus musculus with 24 samples.

Results

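The genes described here are 38 mouse genes of lipid-associated macrophages and of the lysosome, in 7 classes set by what each gene is known to encode. The classes are 8 phagocyte-restricted genes, 4 membrane and lipid-handling genes of wider expression, 7 cathepsins, 3 glycosidases, 7 lysosomal membrane, cholesterol and accessory proteins, 2 transcription factors and 7 subunits of the proton pump. A gene was read from a probe set that the array annotation assigns to that gene alone, and where there were several, from the one with the highest mean signal in the tissue. By that rule 36 of the 38 genes were measured, out of 18193 genes on the array, and Spp1 and Cd63 are not analysed here. The study put mice that lack GPR120 (gene Ffar4), a receptor for long-chain fatty acids, and wild-type mice on a high-fat diet (HFD) or a normal diet (ND) and measured RNA of epididymal fat and of liver on Affymetrix arrays. The groups, each of 3 mice, were KO on HFD, WT on HFD, KO on ND and WT on ND, and the same 12 mice gave both tissues, 24 arrays in all. All mice had a mixed 129/Sv and C57BL/6 background. Age, the time on diet and how the knockout was made are not given in the sources used here.

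Lipid-associated macrophages are phagocytes of obese adipose tissue that surround dying fat cells, take up their lipid and break it down in lysosomes. The lysosome holds acid hydrolases such as the cathepsins and glycosidases, is acidified by the vacuolar proton pump (V-ATPase), and is present in every cell, so most of its genes are not markers of a phagocyte. Many lysosomal genes carry short E-box elements near their start sites that are bound by TFEB, TFE3 and MITF. Some genes of the list, such as Trem2 and Gpnmb, are expressed mainly in macrophages and osteoclasts.

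Signals were linear intensities scaled to nearly the same trimmed mean on every array (100.03 to 100.051), and within each group the lowest rank correlation between arrays was 0.889 to 0.963. The probe set of Ffar4, whose position relative to the deletion is not known, gave 26.5, 30.5 and 23.1 in KO fat on HFD, against 97.3, 126 and 171 in WT fat on HFD, and it was called lower (log2 difference -2.27 ± 0.21 (SE), adjusted p = 0.000253 from limma). On ND it gave 34.2, 33.7 and 35.7 in KO fat, against 62.0, 58.3 and 73.7 in WT fat, with no overlap and an adjusted p of 0.115. In liver Ffar4 was below the filter on low signals and ran the other way, with 18.34, 13.51 and 15.98 in livers labelled KO on HFD and 0.55, 1.19 and 1.63 in livers labelled WT on HFD, so it gives no check of the liver labels, on which the liver directions rest. Defining markers fitted the labelled tissues, with 5 adipocyte genes summing to 11070.1 to 24545 over the fat arrays and 311 to 1217 over the liver arrays, and 5 hepatocyte genes to 147 to 4665 over the fat arrays and 46360.3 to 66922 over the liver arrays. The log2 ratio of the 3′ to the 5′ probe set of Actb, a measure of RNA integrity, was 0.73 ± 0.10 in KO HFD fat and 1.44 ± 0.28 in WT HFD fat (SD, n = 3 each). In liver it was 1.70 ± 0.01 on KO HFD arrays and 2.04 ± 0.05 on WT HFD arrays (SD, n = 3 each). Its part in the differences below was not tested. One fat array of each HFD genotype had high signals of another tissue's genes: the summed signal of 8 epididymis genes was 2737 in KO mouse 427, against 28.8 to 95.2 in the other KO HFD mice, and that of 4 skeletal muscle genes was 3775 in WT mouse 547, against 171 to 824 on the other HFD fat arrays.

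Promoter sequences were at hand for 31 of the 38 genes, as windows of 250 bases before to 50 bases after the start site in RefSeq on the GRCm38.p6 build. Atp6v0d2, Ctsb, Ctsh, Npc1, Atp6v1b2, Atp6v1c1 and Atp6v1h had no entry. The palindromic E-box CACGTG, which reads the same on both strands, was in the windows of 10 of the 24 members outside the phagocyte-restricted class (41.7%), in 0 of the 7 phagocyte-restricted ones, and in 8.09% of the 27025 genes of the table. The longer form GTCACGTG, searched on both strands and overlapping that E-box, was in 6 of the 24 (25.0%) and in 2.55% of all genes. Sites of TFEB, TFE3 and MITF without CACGTG were not searched. At a share of 8.09% over all genes, 0 of 7 does not show a lack in the phagocyte-restricted class. The motif GAGGAAGT of the macrophage factor PU.1, searched on both strands, was in 4 of the 31 (12.9%), namely Ctsc, Ctss, Nceh1 and Spp1, and in 3.69% of all genes. The 100-base stretches below show in capitals the E-boxes that lie within them. Ctsd has a further E-box at base -245 and Ctsa one at base 6 from the start site, both outside the stretches. Members with an E-box that were called higher in KO fat come first, then Lamp1, which had 4 of them and was not called. The stretches of Mcoln1, Gaa and Ctsl, which also have an E-box and were not called, are not printed. Last come 3 phagocyte-restricted genes with none that showed some of the highest differences. The printed stretches lie before the start site on the gene's own strand, at chr3:27182904-27183003 (+) for Nceh1, chr16:44139338-44139437 (-) for Atp6v1a, chr4:117887330-117887429 (-) for Atp6v0b, chr2:164833673-164833772 (+) for Ctsa, chr7:142387873-142387972 (-) for Ctsd, chr9:114400978-114401077 (+) for Glb1, chr8:13159061-13159160 (+) for Lamp1, chr6:49036418-49036517 (+) for Gpnmb, chr3:95499110-95499209 (+) for Ctsk and chr17:48346301-48346400 (+) for Trem2.
Nceh1: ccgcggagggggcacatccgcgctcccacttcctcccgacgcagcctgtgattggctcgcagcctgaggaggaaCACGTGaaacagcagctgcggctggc
Atp6v1a: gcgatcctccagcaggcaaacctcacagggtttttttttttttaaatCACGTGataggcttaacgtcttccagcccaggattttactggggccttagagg
Atp6v0b: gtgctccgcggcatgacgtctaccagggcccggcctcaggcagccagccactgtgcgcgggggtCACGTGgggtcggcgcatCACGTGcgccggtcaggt
Ctsa: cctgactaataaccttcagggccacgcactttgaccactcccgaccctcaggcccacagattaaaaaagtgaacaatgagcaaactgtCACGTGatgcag
Ctsd: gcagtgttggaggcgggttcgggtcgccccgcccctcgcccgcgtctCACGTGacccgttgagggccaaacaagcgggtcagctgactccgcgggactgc
Glb1: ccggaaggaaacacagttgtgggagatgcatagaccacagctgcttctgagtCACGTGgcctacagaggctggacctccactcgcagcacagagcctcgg
Lamp1: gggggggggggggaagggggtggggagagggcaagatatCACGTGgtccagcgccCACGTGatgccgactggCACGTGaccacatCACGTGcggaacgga
Gpnmb: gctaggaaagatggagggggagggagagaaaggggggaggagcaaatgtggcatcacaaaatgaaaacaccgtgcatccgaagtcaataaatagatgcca
Ctsk: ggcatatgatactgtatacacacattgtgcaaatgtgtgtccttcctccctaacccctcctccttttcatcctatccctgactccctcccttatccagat
Trem2: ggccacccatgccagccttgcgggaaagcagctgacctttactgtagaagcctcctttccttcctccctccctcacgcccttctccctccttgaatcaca

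In epididymal fat on HFD, 21 of the 36 measured members were called higher in KO than in WT mice and 0 lower, where 10.6% of all 11989 genes tested were called higher, 10.8% lower and 21.4% in either direction. A call is an adjusted p below 0.05 in limma, with Benjamini-Hochberg adjustment over all genes tested. The median log2 difference was 0.86 over the 36 members and -0.02 over all genes tested. The 3 KO signals all lay above the 3 WT signals for 30 members, where 18% of all genes did so, and all below them for 1 member, Acp5, where 19% did. The members called were 6 of 7 phagocyte-restricted genes, 2 of 3 membrane and lipid-handling genes, 3 of 7 cathepsins, 2 of 3 glycosidases, 1 of 7 lysosomal membrane and accessory genes, 1 of 2 transcription factors and 6 of 7 pump subunits. In a bulk sample, more cells of a type and more RNA per cell cannot be told apart, here or in any comparison below. An exact permutation test of 3 against 3 mice cannot go below p = 0.1, so all calls rest on the spread that limma shares over genes and groups.

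The phagocyte-restricted genes held the 3 highest fold differences of the list. Signals are given per mouse, for mice 427, 428 and 429 (KO on HFD) and 546, 547 and 560 (WT on HFD). Atp6v0d2, the d2 subunit of the proton pump (chr4:19876838-19922566), measured 1119, 1364 and 2697 in KO fat, against 60.7, 289 and 118 in WT fat. The lowest KO signal was well above the highest WT signal, and the gene was 12.6-fold higher (log2 difference 3.65 ± 0.48 (SE), adjusted p = 0.000893). Gpnmb, a glycoprotein of the endosomes of lipid-laden macrophages (chr6:49036518-49058182), measured 2609, 3131 and 5631 in KO fat, against 215, 859.5 and 583 in WT fat. It was 7.53-fold higher without overlap (log2 difference 2.91 ± 0.44 (SE), adjusted p = 0.00150). Ctsk, a collagen-degrading cathepsin of osteoclasts and macrophages, measured 1315, 1250.4 and 3270.2 in KO fat, against 191, 309 and 251 in WT fat. All 3 KO signals were above all WT signals, 7.12-fold higher in the mean (log2 difference 2.83 ± 0.34 (SE), adjusted p = 0.000609). Trem2, the lipid receptor that marks these macrophages (chr17:48346401-48352276), measured 807, 966 and 1965 in KO fat, against 177, 285 and 112 in WT fat. It was 6.47-fold higher without overlap (log2 difference 2.69 ± 0.73 (SE), adjusted p = 0.0236). That call was lost without KO mouse 429 (adjusted p = 0.0956), WT mouse 546 (0.0636) or WT mouse 560 (0.0925), and when its probe sets were averaged (log2 difference 1.27, adjusted p = 0.231). The other Trem2 probe set in that average had a mean signal of 5.06, under the filter level.

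Capg, an actin-capping protein of phagocytes, measured 1312, 2006 and 2487 in KO fat, against 359, 652 and 414 in WT fat, and was 4.07-fold higher (log2 difference 2.02 ± 0.25 (SE), adjusted p = 0.000663). Its other probe set above the filter, with a mean signal of 28.4 against 983 for the one used, pointed the other way (log2 difference -0.30). With its probe sets averaged Capg was not called (log2 difference 0.86, adjusted p = 0.183). Ctss, the cathepsin of antigen-presenting cells that lies next to Ctsk on chromosome 3 (chr3:95526786-95556405 and chr3:95499210-95509387), measured 3868, 5191 and 5544 in KO fat, against 1432, 2677 and 1776 in WT fat. It was 2.54-fold higher without overlap (log2 difference 1.34 ± 0.28 (SE), adjusted p = 0.00713). Acp5, the tartrate-resistant acid phosphatase of osteoclasts and macrophages, was the exception, with 743, 995 and 991 in KO fat, against 1219, 1021 and 1342 in WT fat. Every KO signal of Acp5 was below every WT signal, but the gene was not called (log2 difference -0.40 ± 0.25 (SE), adjusted p = 0.287). Within each genotype the members ranked the mice alike: of the 21 members called, mouse 429 was the highest of the KO mice for 21 and mouse 427 the lowest for 18, while mouse 547 was the highest of the WT mice for 19.

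**Figure D1:**
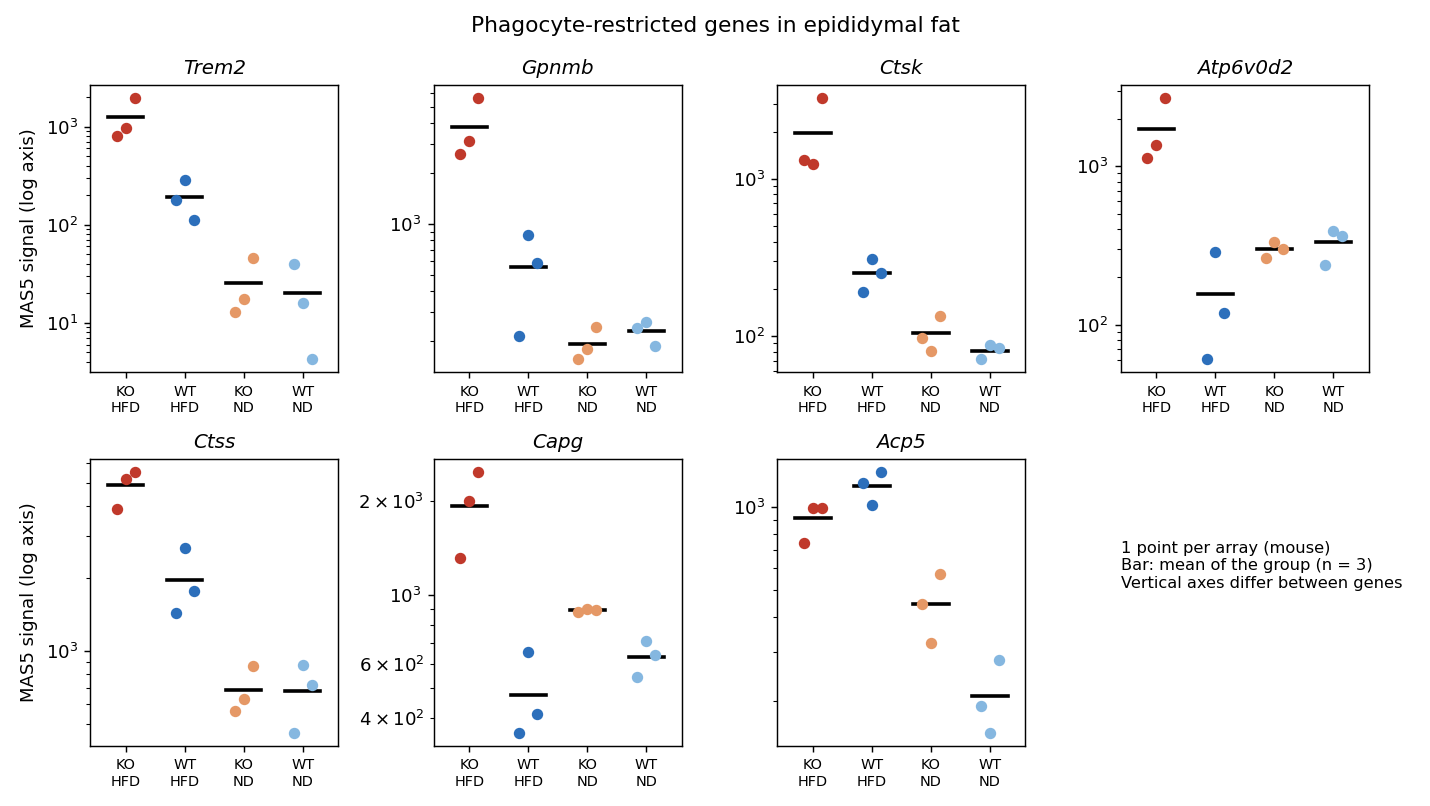
Signal (linear intensity, log axis) of the 7 measured phagocyte-restricted genes in epididymal fat, with 1 point per mouse and a bar at the mean of each group of 3, for KO and WT mice on HFD and on ND. In 6 of the 7 panels the KO HFD points lie above all WT HFD points, and in the panel of Acp5 below them.

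The same arrays differed in the markers of macrophages in general. The summed signal of 14 macrophage markers was 21366, 24463 and 31900 in KO fat on HFD, against 8715, 14263 and 12056 in WT fat on HFD. Of these markers, which are not members, 12 of 14 were called higher and 0 lower, with a median log2 difference of 1.75, and none was under the filter on every array. Adgre1, which encodes the surface marker F4/80, had a log2 difference of 2.24 (adjusted p = 0.000762) and Csf1r, the receptor for the macrophage growth factor, one of 0.47 (adjusted p = 0.0370). Mouse 429 had the highest macrophage sum of the KO mice and mouse 547 that of the WT mice, as for the members. Of 6 osteoclast and multinucleate-cell markers, 3 passed the filter in fat and 0 were called, with sums of 250 to 347 in KO HFD fat and 195 to 218 in WT HFD fat. How far the macrophage markers account for the members' differences was not tested.

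Among the membrane and lipid-handling genes of wider expression, Nceh1, a hydrolase of cholesterol esters that is abundant in foam cells, measured 442, 384 and 845 in KO fat, against 43.7, 161 and 56.8 in WT fat. It was 7.10-fold higher without overlap (log2 difference 2.83 ± 0.45 (SE), adjusted p = 0.00192), close in size to the phagocyte-restricted genes, and its 2 other probe sets above the filter gave log2 differences of 2.39 and 2.34. Cd9, a tetraspanin of many cell types, measured 1292, 1384 and 2686 in KO fat, against 726, 493 and 575 in WT fat, and was 2.86-fold higher (log2 difference 1.51 ± 0.25 (SE), adjusted p = 0.00208). Anxa5, the phospholipid-binding annexin, measured 2986, 4262 and 4182 in KO fat, against 3433, 3238 and 2941 in WT fat. Those groups overlapped and Anxa5 was not called (log2 difference 0.23 ± 0.16 (SE), adjusted p = 0.350).

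Of the cathepsins found in all cells, 3 of 7 were called higher, with a class median of 0.68 on the log2 scale. Ctsa, the carboxypeptidase that protects other lysosomal enzymes, measured 1039, 1219 and 2339.9 in KO fat, against 569, 709 and 566 in WT fat. It was 2.35-fold higher without overlap (log2 difference 1.23 ± 0.24 (SE), adjusted p = 0.00523), and with its probe sets averaged it was not called (log2 difference 0.88, adjusted p = 0.0879). The other Ctsa probe set in that average had a mean signal of 17.1, under the filter level. Ctsd, the main aspartic protease of the lysosome, measured 2547, 3395 and 4328 in KO fat, against 1745, 2222 and 1820.5 in WT fat, and was 1.74-fold higher (log2 difference 0.80 ± 0.20 (SE), adjusted p = 0.0142). The third, Ctsh, had a log2 difference of 0.83 ± 0.22 (SE, adjusted p = 0.0213). Ctsd was no longer called without mouse 429, 546 or 560 (adjusted p = 0.0570, 0.0541 and 0.0529), and Ctsh without mouse 546 or 560 (0.0680 and 0.0808). The other 4 cathepsins had log2 differences of 0.68 for Ctsz, 0.44 for Ctsc, 0.42 for Ctsb and 0.31 for Ctsl, with adjusted p of 0.0760 to 0.283.

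Hexa, the alpha subunit of beta-hexosaminidase, which removes sugars from gangliosides, measured 2052, 2619 and 3515 in KO fat, against 1129, 1693 and 1466 in WT fat. It was 1.89-fold higher without overlap (log2 difference 0.92 ± 0.19 (SE), adjusted p = 0.00665). Glb1, lysosomal beta-galactosidase, measured 227, 209 and 322 in KO fat, against 153, 166 and 164 in WT fat, and lay just inside the threshold (log2 difference 0.63 ± 0.20 (SE), adjusted p = 0.0449). The call of Glb1 was lost without mouse 427, 429, 546, 547 or 560, with adjusted p between 0.0514 and 0.170. Gaa, the acid glucosidase that breaks down glycogen, measured 347, 309.7 and 351 in KO fat, against 329.9, 380.4 and 354 in WT fat, with overlap and a log2 difference of -0.08.

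Of the lysosomal membrane, cholesterol and accessory proteins, 1 of 7 was called. Psap, the precursor of the saposins that help to degrade sphingolipids, measured 4783, 5711 and 6516 in KO fat, against 2918, 3425 and 2857 in WT fat. It was 1.84-fold higher with a narrow spread and no overlap (log2 difference 0.88 ± 0.12 (SE), adjusted p = 0.000960). Lamp1, the abundant glycoprotein of the lysosomal membrane whose promoter stretch above holds 4 E-boxes, measured 2673, 3246 and 3866 in KO fat, against 2183, 2666 and 2274 in WT fat. Its groups did not overlap, and it lay just outside the threshold (log2 difference 0.45 ± 0.15 (SE), adjusted p = 0.0519). Npc1 and Npc2, which export cholesterol from the lysosome, had log2 differences of 0.67 and 0.38, Lamp2 one of 0.36, the progranulin gene Grn one of 0.27 and the calcium channel gene Mcoln1 one of 0.23, with adjusted p of 0.0665 to 0.515.

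Mitf, a transcription factor that binds E-boxes of lysosomal genes in several cell types, measured 462, 585 and 912 in KO fat, against 281, 341 and 393 in WT fat, and was 1.87-fold higher (log2 difference 0.90 ± 0.26 (SE), adjusted p = 0.0299). The call of Mitf was lost without mouse 429, 546 or 547 (adjusted p = 0.114, 0.105 and 0.0599) and with its probe sets averaged (log2 difference 0.40, adjusted p = 0.528). The other probe set of Mitf had a mean signal of 2.69, under the filter level. Tfeb, its relative that drives lysosome formation, was a dim gene with 54.0, 70.6 and 62.7 in KO fat, against 43.3, 33.9 and 24.9 in WT fat. The groups were apart, but Tfeb was not called (log2 difference 0.90 ± 0.37 (SE), adjusted p = 0.108).

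Of the proton pump subunits, 6 of 7 were called higher, with a median log2 difference of 1.28. Atp6v1a, the catalytic A subunit of the cytosolic part, measured 994, 1156 and 1842 in KO fat, against 445, 553 and 408 in WT fat. It was 2.76-fold higher without overlap (log2 difference 1.47 ± 0.20 (SE), adjusted p = 0.000940). Atp6v1b2, the widely expressed form of the B subunit, measured 800.5, 903 and 1488 in KO fat, against 369, 458 and 375 in WT fat, and was 2.57-fold higher (log2 difference 1.36 ± 0.21 (SE), adjusted p = 0.00182). After averaging over its probe sets Atp6v1b2 was not called (log2 difference 0.63, adjusted p = 0.200). That average takes in probe sets with mean signals of 2.055 and 11.6, under the filter level, while the other one above it gave 1.34. Tcirg1, the a3 subunit that osteoclasts and macrophages use, was 2.83-fold higher (adjusted p = 0.00233), the C subunit gene Atp6v1c1 2.43-fold (0.00460), the membrane subunit gene Atp6v0b 2.01-fold (0.0186) and the a1 subunit gene Atp6v0a1 1.80-fold (0.0246). Atp6v1h, the regulatory H subunit, was not called (log2 difference 0.37 ± 0.17 (SE), adjusted p = 0.144). Atp6v0b was no longer called without mouse 546 or 560 (adjusted p = 0.0593 and 0.0615), and Atp6v0a1 without mouse 429, 546 or 560 (0.101, 0.0543 and 0.0997).

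**Figure D2:**
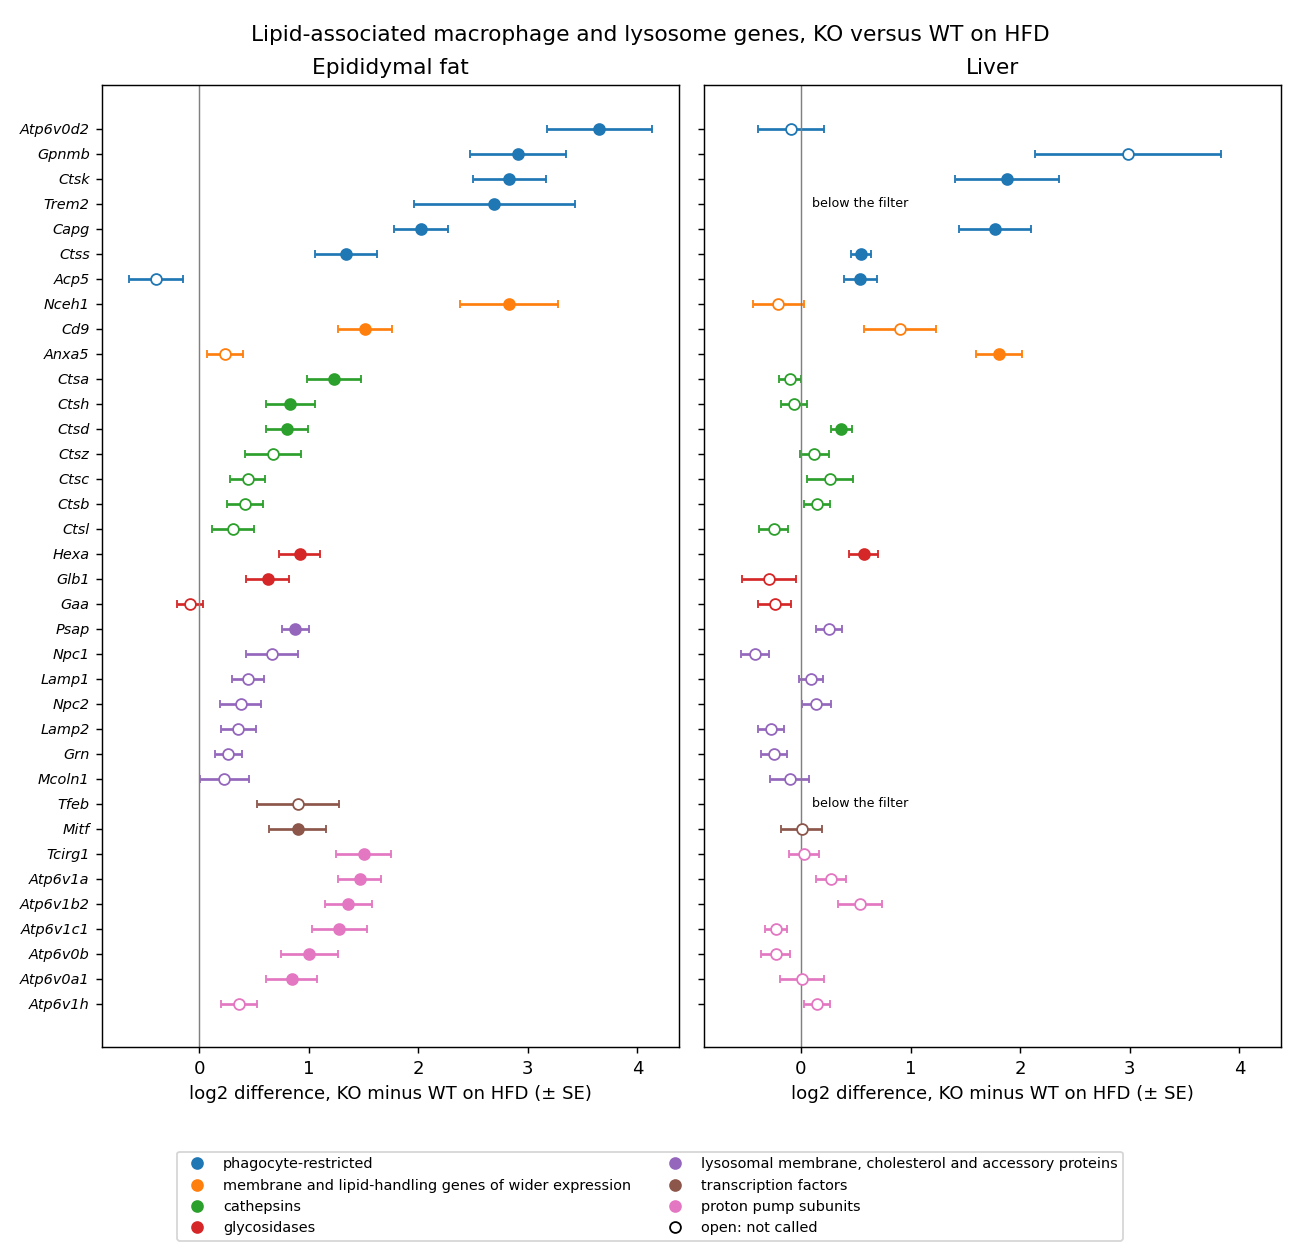
Log2 difference between KO and WT mice on HFD (± SE from limma, 3 mice per group) for each measured member, by class, in fat and in liver. Filled points were called, and open points were not. In fat Atp6v0d2, Gpnmb, Ctsk, Nceh1 and Trem2 show the highest differences, and in liver most points of the other classes lie near 0.

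Over the 29 measured members outside the phagocyte-restricted class, 15 were called higher and 0 lower in KO fat on HFD, with a median log2 difference of 0.80, against 6 of 7 and a median of 2.69 in the phagocyte-restricted class. The macrophage markers lay between them at 1.75. Of the members outside the phagocyte-restricted class with a promoter window, 6 of 10 with the E-box were called (median log2 difference 0.71) and 6 of 13 without it (median 0.85). Phagocyte-restricted genes with a window and a probe set, none with an E-box, were called in 5 of 6 cases (median 2.36). The count of 21 members was 14 without mouse 546 and 15 without mouse 560, and it was 24 without the arrays of mice 427 and 547, which had the high epididymis and muscle signals. The calls of 11 members, namely Atp6v0d2, Atp6v1a, Atp6v1c1, Cd9, Ctsk, Ctss, Gpnmb, Hexa, Nceh1, Psap and Tcirg1, were kept under every alternative that was run for this comparison. Markers of other cells differed on the same arrays: 5 of 5 endothelial markers were called lower in KO fat (summed signal 762 to 1172 in KO HFD fat and 2488 to 2702 in WT HFD fat), and 4 of 5 fibroblast markers higher. Their part in the members' differences was not tested.

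**Figure D3:**
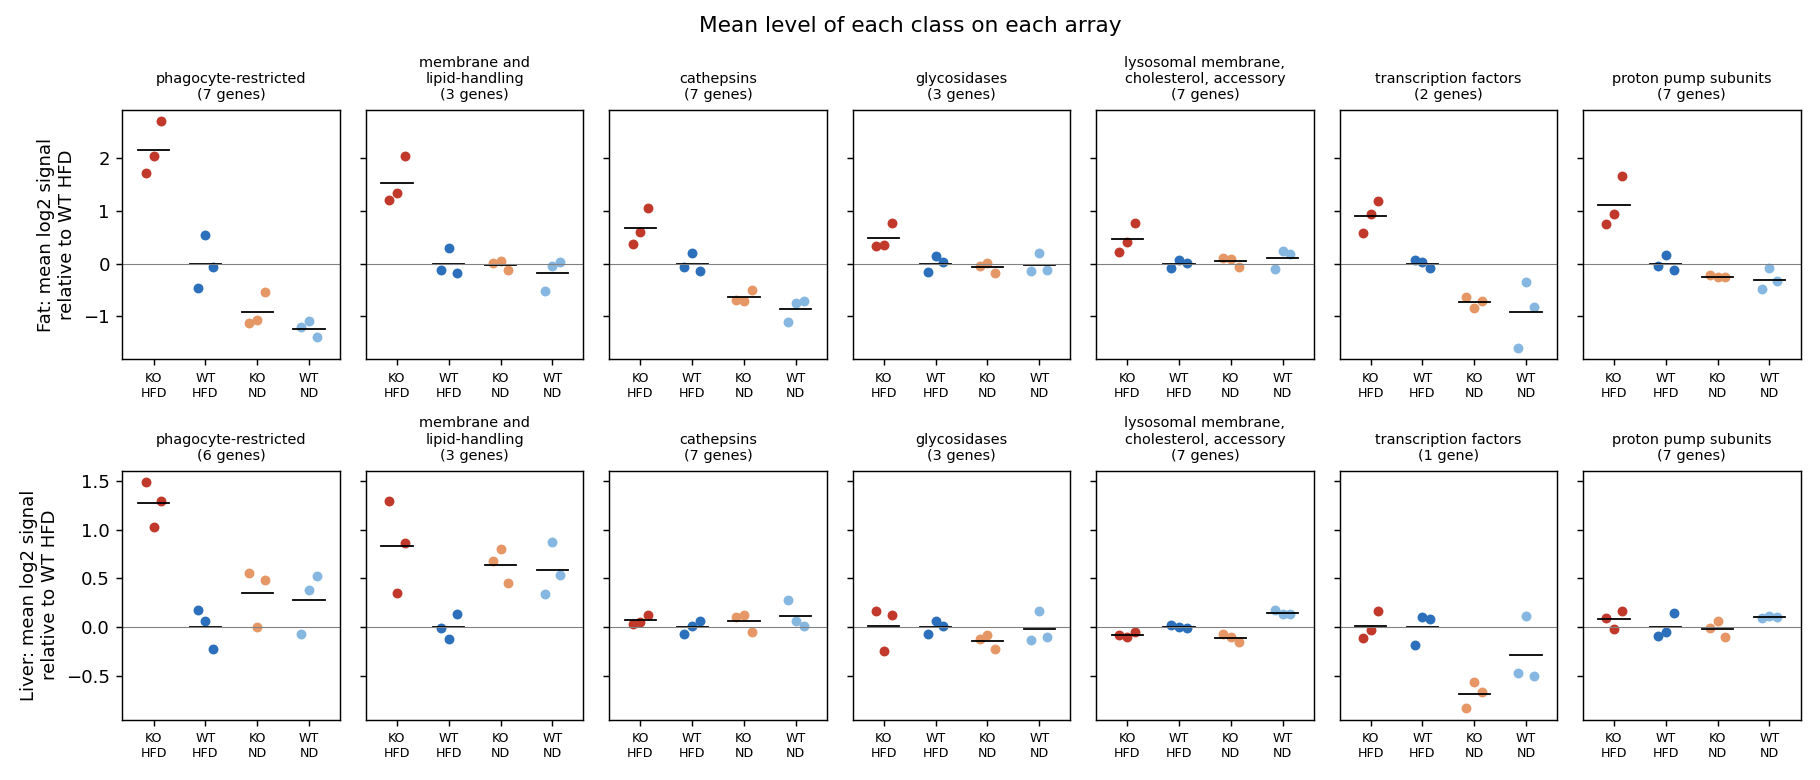
Mean log2 signal of the measured members of each class on every array, relative to the mean of the WT HFD group of the same tissue, with 1 point per mouse. In fat the phagocyte-restricted class lies at 1.72 to 2.70 on the KO HFD arrays and at -0.47 to 0.55 on the WT HFD arrays, and the proton pump at 0.75 to 1.67 on the KO HFD arrays and at -0.12 to 0.16 on the WT HFD arrays.

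Which probe set read a gene mattered for several lysosomal members. Of the 36 members, 21 had more than 1 probe set above the filter in fat, and in KO against WT on HFD a further probe set had the opposite sign for 2 of them, Atp6v1h and Capg. For Ctsb the brightest probe set gave a log2 difference of 0.42, while 4 dimmer ones gave 2.35, 1.55, 1.54 and 0.79. A dimmer probe set gave 1.98 for Ctsl, against 0.31 for the brightest, 1.98 for Npc2, against 0.38, and 1.17 for Grn, against 0.27. A further Npc2 probe set, nearly as bright as the one used, gave 0.14, and a further Grn probe set gave 0.48. Ctsb, Ctsl, Npc2 and Grn, none of them called, were therefore higher by 1.17 or more on at least 1 further probe set. In liver, 10 of 19 members with several probe sets above the filter had one of opposite sign in the same comparison. Between diets, 6 of 21 in KO fat and 7 of 21 in WT fat had one, as did 8 of 19 in livers of each label.

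**Figure D4:**
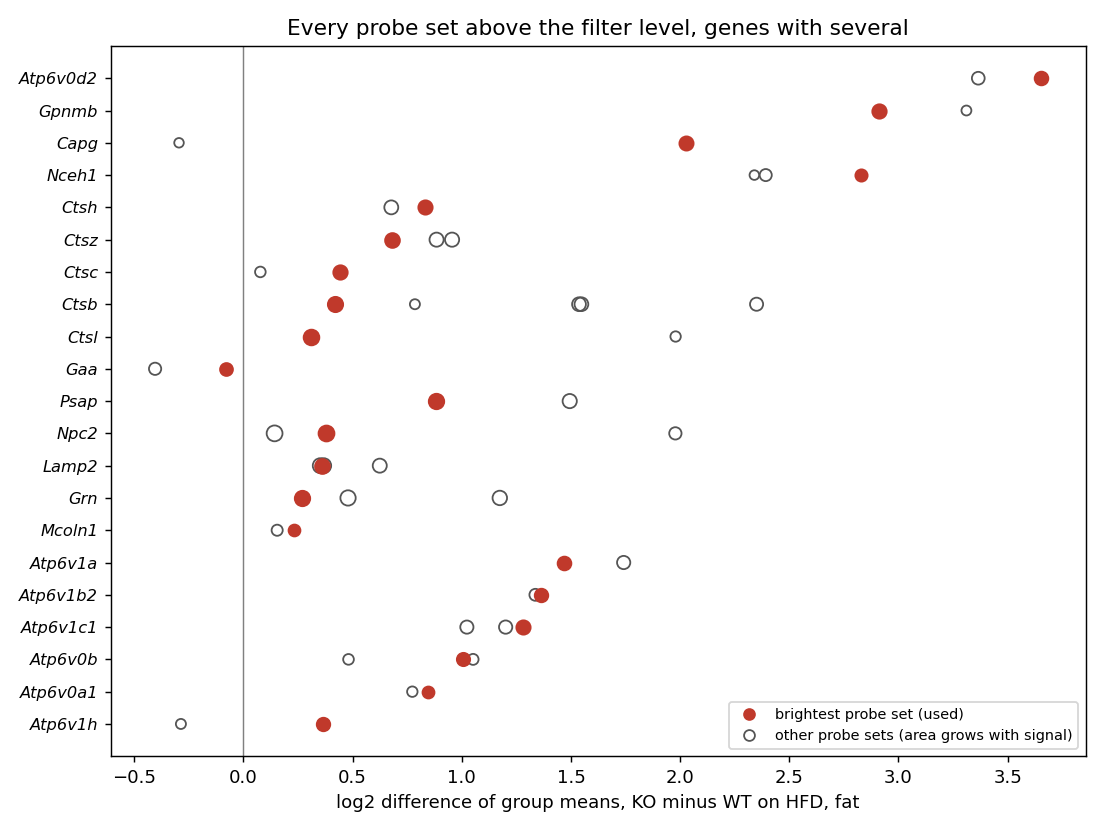
Log2 difference between KO and WT fat on HFD for every probe set above the filter, for the 21 members with more than 1 such probe set. The probe set used for the gene is marked, and for Ctsb, Ctsl, Npc2 and Grn it lies to the left of a further one.

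Other genes of the same organelle and cell type, from lists chosen with earlier results of these data known, were set beside the members. Of 25 further lysosomal hydrolases tested, 12 were called higher and 1 lower in KO fat on HFD (median log2 difference 0.52). The lowest adjusted p were those of Lgmn, the asparaginyl endopeptidase (log2 difference 1.70, adjusted p = 0.000530), Gusb, beta-glucuronidase (2.03, 0.00107), and Manba, beta-mannosidase (0.95, 0.00150). Of 16 further membrane and sorting proteins, 8 were called higher and 0 lower, led by Laptm5 (1.49, 0.00178) and Cd68 (2.28, 0.00187), both found mainly in blood-derived cells. Of 9 further pump subunits 2 were called, Atp6ap2 (0.48, 0.0419) and Atp6v1f (0.69, 0.04996), with a median of 0.39, below the 1.28 of the 7 member subunits. Of 14 factors of the Mitf family and autophagy genes, 1 was called higher and 1 lower (Map1lc3b, -0.63, 0.0223), with a median of 0.02. The 1 called higher was Mitf itself, a member whose call is already counted above. Of 17 further lipid-associated macrophage genes, 8 were called higher and 0 lower, among them Clec7a (2.13, 0.000611), the beta-glucan receptor, and Itgax (3.11, 0.000918), which encodes CD11c. Cd68 and the lipase gene Lipa each stand in 2 of these lists, and Itgax is also a dendritic cell marker. Of the 3 dendritic cell markers above the filter in fat, Itgax was called higher and Zbtb46 lower (-1.03, 0.0158), with a median of -0.97.

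On ND, 0 of the 36 members were called between KO and WT fat, where 0.242% of all genes were called (0.209% higher and 0.0334% lower). In the same limma fit 3 of the 36 had an unadjusted p under 0.05, and the share of all genes at that level was not counted. The KO signals lay all above the WT signals for 7 members, against 15.7% of all genes, and all below them for 1 member, Psap, against 8.42%. Acp5 measured 446, 322 and 571 in KO fat on ND (mice 718, 719 and 720), against 192, 153 and 279 in WT fat on ND (mice 686, 687 and 690), the highest log2 difference of the members on ND (log2 difference 1.11 ± 0.25 (SE), adjusted p = 0.0954). Gpnmb measured 157, 179.6 and 242 in KO fat, against 239, 262 and 187 in WT fat, and Atp6v0d2 measured 264, 332 and 300.0 in KO fat, against 237, 390.0 and 363 in WT fat. Both overlapped between genotypes, in contrast to HFD. Trem2 measured 13.0, 17.3 and 46.0 in KO fat, against 39.6, 15.9 and 4.27 in WT fat, around the filter level of 23.8, so Trem2 passed the filter through the HFD groups. Ctsk measured 98.0, 80.6 and 135 in KO fat, against 71.7, 87.4 and 84.0 in WT fat. Ctss measured 566, 634 and 865 in KO fat, against 458, 879 and 720.2 in WT fat. Trem2, Ctsk and Ctss overlapped between genotypes on ND, and the macrophage markers summed to 4777 to 5974 in KO fat and 3646 to 4109 in WT fat. Capg measured 880.4, 899 and 891 in KO fat, against 543, 710.0 and 637 in WT fat, apart but not called (log2 difference 0.51 ± 0.25 (SE), adjusted p = 0.349). The median over the 36 members was 0.06, as over all genes tested.

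In KO mice, 26 of the 36 members were called higher in fat on HFD than on ND and 0 lower, where 21.5% of all genes were called higher, 26.7% lower and 48.2% in either direction. All 7 measured phagocyte-restricted genes were called higher, with a median log2 difference of 2.83. Trem2, whose ND signals given above averaged under the filter level on the log2 scale, was at least 38.9-fold higher on HFD (log2 difference 5.73 ± 0.73 (SE), adjusted p = 0.000108). Such a bound sets the brighter group's mean against that of the dimmer group with every signal under the filter level raised to it, both as means of log2 signals. Gpnmb was 18.9-fold higher (log2 difference 4.24 ± 0.44 (SE), adjusted p = 2.72e-05) and Ctsk 17.1-fold (log2 difference 4.10 ± 0.34 (SE), adjusted p = 6.89e-06). Ctsz, which had the highest diet difference of the 7 members in the cathepsin class, measured 3144, 3545 and 4723 on HFD, against 383, 432 and 733 on ND (log2 difference 2.92 ± 0.25 (SE), adjusted p = 9.19e-06). Nceh1 measured 442, 384 and 845 on HFD, against 54.0, 56.2 and 45.7 on ND (log2 difference 3.34 ± 0.45 (SE), adjusted p = 0.000153). Psap measured 4783, 5711 and 6516 on HFD, against 2050.3, 2039 and 2100.1 on ND (log2 difference 1.45 ± 0.12 (SE), adjusted p = 7.52e-06). None of these 3 genes overlapped between diets. Mitf had a log2 difference of 2.39 and Tcirg1 one of 2.38, and the median over all 36 members was 1.23, against -0.11 over all genes tested. The 14 macrophage markers moved on the same arrays: 13 were called higher on HFD and 0 lower, with a median log2 difference of 2.80, and their sums were 21366 to 31900 in KO fat on HFD and 4777 to 5974 in KO fat on ND. Their part in the members' diet differences was not tested.

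In WT mice, HFD against ND gave calls in both directions in fat, 17 members higher and 6 lower, where 27.2% of all genes were called higher, 30.3% lower and 57.5% in either direction. Trem2 (log2 difference 3.68 ± 0.73 (SE), adjusted p = 0.00148) was at least 6.33-fold higher on HFD, its ND mean lying under the filter level. Acp5 measured 1219, 1021 and 1342 on HFD, against 192, 153 and 279 on ND, and was 5.89-fold higher (log2 difference 2.56 ± 0.25 (SE), adjusted p = 1.25e-05). Ctsz measured 2123, 2854 and 2121 on HFD, against 236, 323 and 359 on ND (log2 difference 2.96 ± 0.25 (SE), adjusted p = 6.40e-06), nearly the same difference as in KO mice. Gpnmb was not called (log2 difference 1.07 ± 0.44 (SE), adjusted p = 0.0560). The members called lower on HFD in WT mice were Atp6v0d2, Ctsh, Cd9, Glb1, Mcoln1 and Npc2. Cd9 measured 726, 493 and 575 on HFD, against 999, 1307 and 1183 on ND (log2 difference -0.97 ± 0.25 (SE), adjusted p = 0.00610). Ctsh measured 607, 761 and 577 on HFD, against 1159.9, 1439 and 1446 on ND (log2 difference -1.06 ± 0.22 (SE), adjusted p = 0.00200). Both were apart, whereas Atp6v0d2 overlapped between diets (log2 difference -1.34 ± 0.48 (SE), adjusted p = 0.0333), and its call was lost without mouse 546, 560, 687 or 690, with adjusted p between 0.0827 and 0.135. The call of Npc2 was lost without mouse 546, 560, 687 or 690 as well (0.0598 to 0.107). Averaging the probe sets of Npc2 ended its call too, and its further probe sets above the filter gave log2 differences of -0.19 and 1.06. Of the macrophage markers, 10 of 14 were called higher on HFD in WT fat and 0 lower (median log2 difference 1.74), with sums of 8715 to 14263 on HFD and 3646 to 4109 on ND. The log2 ratio of the 3′ to the 5′ probe set of Actb in WT fat was 1.44 ± 0.28 on HFD and 0.90 ± 0.02 on ND (SD, n = 3 each). Atp6v0d2, called lower, did not follow the macrophage markers here, which goes against the name of its class for this gene in WT fat. Its other probe set gave a log2 difference of -1.24. Capg was not called (log2 difference -0.45 ± 0.25 (SE), adjusted p = 0.140). The other Capg probe set above the filter gave 0.54, but its mean signal in fat was 28.4, against 983 for the one used. On the probe set used, Capg did not rise with the macrophage markers in WT fat either, which goes against its class name as well.

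The fat of ND mice had much higher epididymis signals, and diet and the amount of epididymal RNA cannot be told apart: 8 epididymis markers summed to 28.8 to 2737 in KO fat on HFD and 39774 to 49507 in KO fat on ND, and to 23.9 to 38.5 in WT fat on HFD and 34976 to 56279 in WT fat on ND. Pump genes of epididymal clear cells, none of them a member, summed to 14.6 to 24.9 in KO HFD fat, 185 to 241 in KO ND fat, 8.96 to 17.6 in WT HFD fat and 225 to 272 in WT ND fat. The member Atp6v0d2, not on that list, measured 264, 332 and 300.0 in KO ND fat and 237, 390 and 363 in WT ND fat. On HFD it measured 60.7, 289 and 118 in WT fat and 1119, 1364 and 2697 in KO fat. Whether epididymal RNA adds to its ND signals was not tested. The part of epididymal RNA in the diet differences of the 26 and 23 members called was not tested. Without the WT ND arrays of mice 686 and 690, where 4 sperm markers summed to 16941 and 12837, the count in WT mice was 14 in place of 23.

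**Figure D5:**
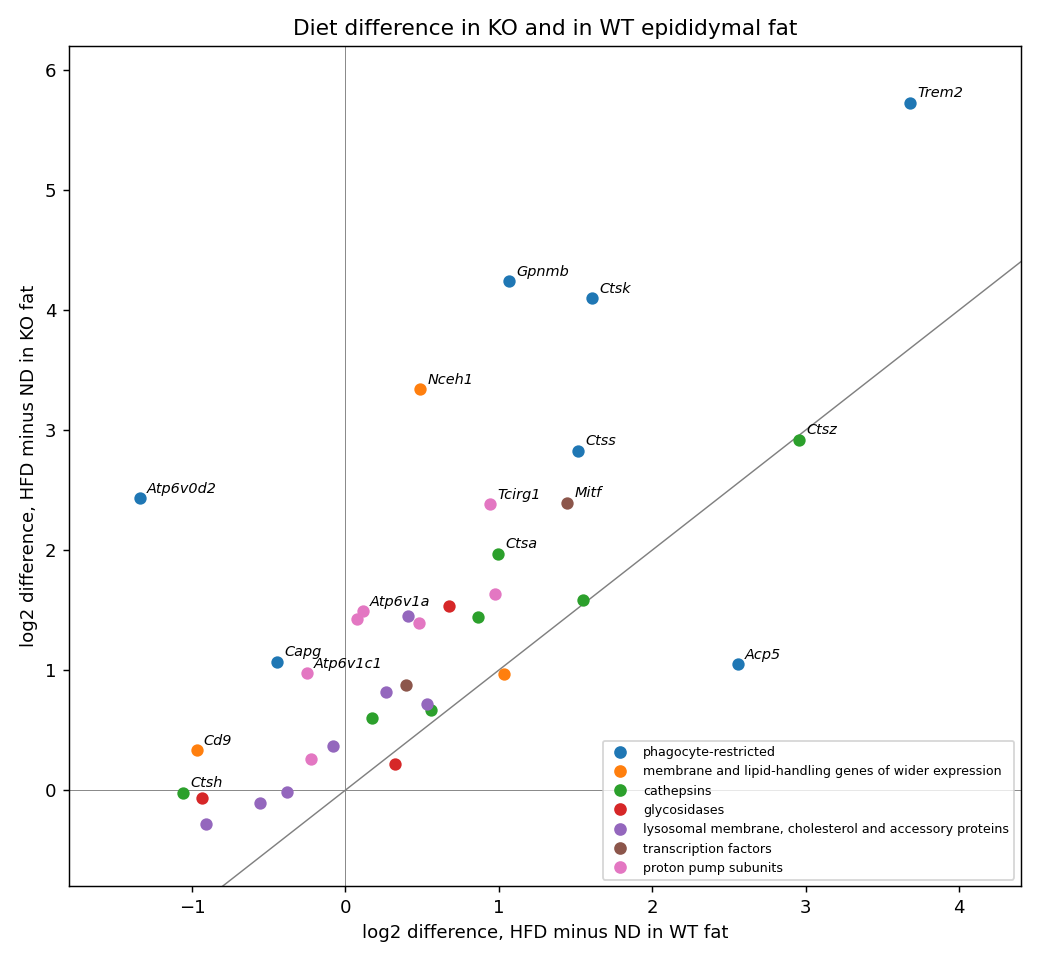
Log2 difference between HFD and ND in fat, in KO mice (vertical axis) against WT mice (horizontal axis), with 1 point per measured member, coloured by class, and a line where both are equal. Atp6v0d2, Gpnmb, Nceh1 and Ctsk lie above the line, Acp5 lies below it, and Ctsz lies close to it.

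The diet difference itself differed between genotypes for 12 members in fat, where 10.6% of all genes were called for this interaction. It was more positive in KO mice for 11 of them, against 3.69% of all genes, and less positive for Acp5, against 6.96%. The interaction (diet difference in KO minus that in WT, log2 ± SE) was 3.77 ± 0.68 for Atp6v0d2 (adjusted p = 0.00909), 3.17 ± 0.62 for Gpnmb (0.0126), 2.85 ± 0.64 for Nceh1 (0.0196), 2.49 ± 0.48 for Ctsk (0.0116), 1.52 ± 0.35 for Capg (0.0215) and -1.51 ± 0.35 for Acp5 (0.0223). For Atp6v0d2 the diet difference was 2.43 in KO mice and -1.34 in WT mice, opposite in sign. For Trem2 it was 5.73 in KO mice and 3.68 in WT mice, with ND signals around the filter level in both, a difference of 2.04 that was not called (adjusted p = 0.222). Among the other members, Psap had an interaction of 1.04 ± 0.17 (0.00625), Cd9 of 1.30 (0.0375) and 4 pump subunits, Atp6v1a, Atp6v1b2, Atp6v1c1 and Tcirg1, of 1.23 to 1.44 (0.0145 to 0.0472). No cathepsin of the 7 in that class, with interactions up to 1.04 for Ctsh (adjusted p = 0.0579), was called. The count of 12 was 5 without KO ND mouse 720, 5 without WT HFD mouse 560 and 3 without the arrays of mice 686 and 690, and only Atp6v0d2 and Psap kept their calls under every alternative run for it. The ND groups' epididymal RNA enters this contrast as well, and its part was not tested.

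In liver on HFD, 7 of the 34 members above the filter were called higher on arrays labelled KO than on arrays labelled WT and 0 lower, where 3.75% of all 11161 genes tested were called higher, 3.02% lower and 6.76% in either direction. Anxa5 measured 1791, 1042 and 1445 in livers labelled KO, against 468, 309 and 434 in livers labelled WT. It was 3.50-fold higher without overlap (log2 difference 1.81 ± 0.21 (SE), adjusted p = 0.000281), while in fat it had not been called. Capg measured 59.6, 54.5 and 52.2 in livers labelled KO, against 13.2, 24.7 and 13.1 in livers labelled WT, and was 3.41-fold higher (log2 difference 1.77 ± 0.33 (SE), adjusted p = 0.00774). Ctss measured 1236, 1041 and 1105 in livers labelled KO, against 752, 808 and 752 in livers labelled WT, apart and 1.46-fold higher (log2 difference 0.55 ± 0.09 (SE), adjusted p = 0.00517). The calls of Anxa5, Capg and Ctss were kept under every alternative run for this comparison.

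Ctsk measured 29.2, 20.2 and 24.9 in livers labelled KO, against 13.5, 3.56 and 6.08 in livers labelled WT, whose mean lay under the filter level of 14.8, so it was at least 1.65-fold higher (log2 difference 1.88 ± 0.47 (SE), adjusted p = 0.0327). Acp5 measured 719, 767 and 777 in livers labelled KO, against 471, 611 and 482 in livers labelled WT (log2 difference 0.54 ± 0.15 (SE), adjusted p = 0.0492), the reverse order of that in fat. Hexa measured 1168, 1235 and 1293 in livers labelled KO, against 800.0, 903 and 783 in livers labelled WT (log2 difference 0.57 ± 0.13 (SE), adjusted p = 0.0232). All 3 genes were apart between the genotypes. Ctsd measured 812, 759.8 and 899.7 in livers labelled KO, against 648, 646 and 614 in livers labelled WT, also apart (log2 difference 0.37 ± 0.09 (SE), adjusted p = 0.0338). Each of these 4 calls was lost when certain single arrays were left out, Ctsk without mouse 427, 428, 429, 547 or 560 (adjusted p 0.0554 to 0.133), Acp5 without 427, 428, 429, 546 or 560 (0.106 to 0.153), Hexa without 427, 428, 429, 546 or 560 (0.0559 to 0.0755) and Ctsd without 427, 429, 546, 547 or 560 (0.0765 to 0.118). The count of 7 was accordingly 3 without mouse 427 or 429, 4 without 428, 546 or 560, and 5 without 547.

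Gpnmb measured 77.2, 28.3 and 67.2 in livers labelled KO, against 8.02, 12.2 and 3.05 in livers labelled WT. The groups were apart and the WT mean was under the filter level, so Gpnmb was at least 3.56-fold higher, yet it was not called (log2 difference 2.98 ± 0.85 (SE), adjusted p = 0.0528). Atp6v0d2 measured 42.5, 29.8 and 30.3 in livers labelled KO, against 41.4, 24.7 and 45.3 in livers labelled WT, with overlap. Trem2 was under the filter in liver, with 1.1, 11.74 and 11.56 in livers labelled KO and 1.89, 5.62 and 5.93 in livers labelled WT, and Tfeb was under it too. Those Trem2 signals are from another probe set than the one used in fat, and its mean signal in fat was 5.06. The probe set used for Trem2 in fat was under the liver filter as well, with a mean signal of 9.30. Of the phagocyte-restricted genes tested in liver, 4 of 6 were called (median log2 difference 1.16), against 3 of 28 in the other classes (median 0.02). Gpnmb, with the highest of those 6 differences, passed the filter only through the KO HFD group, so the median of 1.16 is raised by that selection. No pump subunit of the 7 was called in liver by limma, with an unadjusted p under 0.05 for 2 of them and a median log2 difference of 0.03 over the 7. The share of all liver genes at that unadjusted level was not counted. The 14 macrophage markers summed to 6098 to 7693 in livers labelled KO on HFD and 4273 to 5284 in livers labelled WT on HFD, with 4 of 13 tested called higher, and 0 of 5 Kupffer cell markers was called. Other markers were apart as well. The 5 adipocyte markers summed to 989 to 1217 in livers labelled KO and 311 to 376 in livers labelled WT, with all 3 tested called higher. The 5 fibroblast markers summed to 2598 to 3572 in livers labelled KO and 1847 to 2357 in livers labelled WT, with 2 of 5 called higher. The 5 hepatocyte markers summed to 46360.3 to 52905 in livers labelled KO and 56661 to 63846 in livers labelled WT, with 2 of 5 called lower. Their part in the members' differences was not tested. Of the further gene lists in liver, 6 of 17 lipid-associated macrophage genes, 5 of 25 hydrolases and 2 of 16 membrane and sorting proteins were called higher, against 0 of 9 further pump subunits.

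On ND in liver, 3 of 34 members were called lower on arrays labelled KO and 0 higher, where 2.52% of all genes were called lower, 2.24% higher and 4.76% in either direction. Ctsl measured 5829.9, 6253 and 4785 in livers labelled KO, against 8796, 8238 and 7722 in livers labelled WT (log2 difference -0.56 ± 0.13 (SE), adjusted p = 0.0292). Ctss measured 526, 502 and 516 in livers labelled KO, against 727, 649.9 and 686 in livers labelled WT (log2 difference -0.42 ± 0.09 (SE), adjusted p = 0.0252). Lamp2, the membrane protein needed for autophagosome clearance, measured 3934, 3332 and 3583 in livers labelled KO, against 4490.2, 5337 and 5024 in livers labelled WT (log2 difference -0.45 ± 0.12 (SE), adjusted p = 0.0477). All 3 were apart, and Ctss ran opposite to its order on HFD. None of the 3 calls was kept under every alternative: the count was 0 without mouse 718 or 720, 1 without 719, 687 or 690, and 2 without 686. Lamp2 changed sign after quantile normalization (log2 difference 0.27) and when read from the probe set brightest over both tissues (0.15).

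In livers labelled KO, 9 of 34 members were called higher on HFD and 1 lower, where 9.19% of all genes were called higher, 7.37% lower and 16.6% in either direction. Ctss measured 1236, 1041 and 1105 on HFD, against 526, 502 and 516 on ND (log2 difference 1.13 ± 0.09 (SE), adjusted p = 2.95e-05), and Anxa5 measured 1791, 1042 and 1445 on HFD, against 638, 656 and 452 on ND (log2 difference 1.28 ± 0.21 (SE), adjusted p = 0.00169). Hexa measured 1168, 1235 and 1293 on HFD, against 857, 788 and 605 on ND (log2 difference 0.73 ± 0.13 (SE), adjusted p = 0.00318). Npc2, the carrier that hands cholesterol to Npc1, measured 1383, 1330.2 and 1436 on HFD, against 898, 915 and 731 on ND (log2 difference 0.71 ± 0.13 (SE), adjusted p = 0.00338). Those 4 genes were higher on HFD without overlap. On the same arrays 10 of 13 macrophage markers were called higher and 0 lower (median log2 difference 1.23), with sums of 6098 to 7693 on HFD and 3027 to 3749 on ND. The log2 ratio of the 3′ to the 5′ probe set of Actb was 1.70 ± 0.01 on HFD and 1.29 ± 0.05 on ND (SD, n = 3 each), and the part of neither in the members' differences was tested. Atp6v0b measured 312, 335 and 401 on HFD, against 267, 219 and 229.9 on ND (log2 difference 0.55 ± 0.13 (SE), adjusted p = 0.0131), while Atp6v1h measured 399.7, 371 and 417 on HFD, against 527, 617 and 528 on ND (log2 difference -0.49 ± 0.12 (SE), adjusted p = 0.0145). The pair of pump subunits thus went opposite ways, and neither call held without mouse 719, with adjusted p of 0.0528 for Atp6v0b and 0.0628 for Atp6v1h. Atp6v0b also lost its call without mouse 429 (0.0613) and Atp6v1h without mouse 428 (0.0531). The count of 10 was 5 without mouse 428, 429 or 719, and 4 with the mean of each gene's probe sets, under which Atp6v0b, Atp6v1h and Npc2 were not called.

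In livers labelled WT, 3 of 34 members were called higher on HFD and 8 lower, where 6.48% of all genes were called higher, 6.01% lower and 12.5% in either direction. Ctsl measured 5389.9, 4639 and 6286 on HFD, against 8796, 8238 and 7722 on ND (log2 difference -0.61 ± 0.13 (SE), adjusted p = 0.0101). Cd9 measured 78.3, 91.8 and 126 on HFD, against 222, 441 and 179 on ND (log2 difference -1.42 ± 0.33 (SE), adjusted p = 0.0149). Ctsk measured 13.5, 3.56 and 6.08 on HFD, against 19.4, 27.5 and 26.4 on ND, at least 1.63-fold lower (log2 difference -1.86 ± 0.47 (SE), adjusted p = 0.0235). All 3 genes were lower on HFD without overlap. The log2 ratio of the 3′ to the 5′ probe set of Actb in these livers was 2.04 ± 0.05 on HFD and 1.18 ± 0.07 on ND (SD, n = 3 each), and 4 of 13 macrophage markers were called higher and 1 lower. Their part in the members' differences was not tested. Ctsb, a cysteine protease, measured 2146, 2167 and 2174 on HFD, against 1860.0, 1376 and 1364 on ND (log2 difference 0.51 ± 0.12 (SE), adjusted p = 0.0145). Further Ctsb probe sets above the filter gave log2 differences of -0.77, -0.06, 0.33 and 0.38. Atp6v0b measured 401, 396 and 428 on HFD, against 314, 252 and 254 on ND (log2 difference 0.58 ± 0.13 (SE), adjusted p = 0.0121), and Atp6v1h measured 338, 346 and 388 on HFD, against 449, 505 and 588 on ND (log2 difference -0.52 ± 0.12 (SE), adjusted p = 0.0146), so these subunits went opposite ways as in livers labelled KO. The only one of the 11 calls kept under every alternative run was that of Ctsl, and the count was 4 without mouse 547, 5 without 546, 687 or 690, and 3 when only the 6 WT arrays were fitted. Single arrays ended the calls of Cd9 (546, 547 or 687, adjusted p up to 0.0601), Ctsk (547, 687 or 690, up to 0.0804), Atp6v1h (546 or 547, up to 0.0564) and Ctsb (687, 0.0540). Averaging the probe sets of each gene ended the calls of Ctsb and Atp6v0b and reversed the sign of Atp6v1h. The diet difference differed between genotypes for 2 members in liver, where 1% of all genes were called (0.627% higher and 0.376% lower): Ctss had an interaction of 0.96 ± 0.13 (SE, adjusted p = 0.00790) and Anxa5 one of 1.52 ± 0.29 (adjusted p = 0.0319). The call of Anxa5 was lost without mouse 427, 429, 547, 687, 718 or 720 (adjusted p 0.0547 to 0.0818).

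Whether the genotype difference on HFD itself differed between fat and liver was tested in one fit of all 24 arrays, over the 10011 genes above the filter in both tissues. Of the 34 members tested, 13 were called, 11 with a more positive difference in fat and 2 with a less positive one, where 13% of all genes were called in either direction, 5.46% more positive in fat and 7.51% less. The difference of differences (fat minus liver, log2 ± SE) was 3.74 ± 0.57 for Atp6v0d2 (adjusted p = 0.000355) and 3.03 ± 0.53 for Nceh1 (0.00118). Pump subunits made up 4 of the 11, Atp6v1c1 (1.51, 0.00138), Tcirg1 (1.47, 0.00250), Atp6v0b (1.24, 0.00967) and Atp6v1a (1.19, 0.00334). The others were Ctsa (1.33, 0.00313), Npc1 (1.08, 0.0128), Ctsh (0.90, 0.0267), Psap (0.63, 0.0168) and Grn (0.52, 0.0467). Anxa5 (-1.57 ± 0.28, 0.00124) and Acp5 (-0.94 ± 0.30, 0.0439) were less positive in fat than in liver. Gpnmb (-0.07 ± 0.995, 0.974), Capg (0.26 ± 0.39, 0.728), Ctsk (0.95 ± 0.55, 0.277) and Ctss (0.80 ± 0.30, 0.0911) were not called between tissues, and for Gpnmb the liver difference rests on WT signals under the filter level. Single arrays ended the calls of Acp5, Grn, Ctsh and Psap, with adjusted p up to 0.106 (Acp5, without fat of mouse 560), 0.128 (Grn, fat of 429), 0.0710 (Ctsh, fat of 560) and 0.0590 (Psap, fat of 429).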

How the data were processed

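Biotin-labelled RNA of 24 mouse samples was hybridised to Affymetrix arrays, and the authors deposited 1 linear intensity per probe set and array, made with MAS5 per the submitters' processing notes. These intensities are background-subtracted and scaled by array, so dim probe sets are noisy. A symbol came from the platform annotation for 34945 of 45101 probe sets; 932 with several symbols, 9160 with none and 64 controls were left out. Replicates are single mice, and their number limits the precision. Within each tissue, signals were raised to a floor (1.08 in fat and 1.1 in liver, the 10th percentile) and taken to log2, the brightest probe set per gene was used, and genes whose mean reached the median probe set's mean (23.8 in fat, 14.8 in liver) were tested: 11989 in fat and 11161 in liver. All 36 measured members passed in fat and 34 in liver. The 4 groups of a tissue were fitted in limma 3.58.1 (R 4.3.3, lmFit and eBayes with trend), with Benjamini-Hochberg adjustment over all genes tested and calls below 0.05. Groups were taken from the labels. Genotypes were compared within each diet, diets within each genotype, the interaction between them, and the genotype difference on HFD between tissues in a joint fit of all 24 arrays. At least N-fold values were given where the dimmer group's mean lay under the filter level. They set the brighter group's mean against that of the dimmer group with every signal under the filter level raised to it. The fit was tested on simulated data.

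Both tissues of a mouse pair the arrays of the joint fit, since the labels give the same animal. Deviations of a mouse's fat and liver from their group means correlated at 0.0249 to 0.122, above 0.1 in 5 of 12 mice. The settings varied were the scaling (quantile), the filter and the floor (none), a pseudocount of 16 in its place, averaging all probe sets of a gene, the probe set brightest over both tissues, only the arrays compared, and leaving out arrays. The averages took in probe sets under the filter level as well. The members and gene lists were chosen with earlier results of these data known. Genes given with values on every array were the measured phagocyte-restricted members, the 2 members of each other class with the smallest adjusted p in KO against WT fat on HFD, members called between genotypes in liver or on ND, and up to 6 members of smallest p in each liver diet comparison. Some further members, such as Anxa5, Gaa and Lamp1 in fat, and those at the ends of a range, were chosen after their values were seen. Genes outside the list were the 2 or 3 of smallest p in a pathway list or the first of a marker list.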

Additional observations from a re-analysis of the deposited data

Results flagged for a closer look

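The members below are listed because their effect differed between groups by a test of the difference itself. In fat, the diet difference (HFD minus ND, log2) was more positive in KO than in WT mice by 3.77 for Atp6v0d2, 3.17 for Gpnmb, 2.85 for Nceh1, 2.49 for Ctsk, 1.52 for Capg, 1.44 for Tcirg1, 1.37 for Atp6v1a, 1.35 for Atp6v1b2, 1.30 for Cd9, 1.23 for Atp6v1c1 and 1.04 for Psap. For Acp5 the interaction was -1.51. Adjusted p from limma ran between 0.00625 for Psap and 0.0472 for Atp6v1c1. In liver the interaction was 1.52 for Anxa5 and 0.96 for Ctss.

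Between tissues, the genotype difference on HFD in fat minus that in liver was 3.74 for Atp6v0d2, 3.03 for Nceh1, 1.51 for Atp6v1c1, 1.47 for Tcirg1, 1.33 for Ctsa, 1.24 for Atp6v0b, 1.19 for Atp6v1a, 1.08 for Npc1, 0.90 for Ctsh, 0.63 for Psap, 0.52 for Grn, -0.94 for Acp5 and -1.57 for Anxa5. Acp5 appears in both tests: in fat on HFD its log2 difference between KO and WT was -0.40 and not called (adjusted p = 0.287 from limma), while 6 of the 7 measured phagocyte-restricted genes were called higher. Groups of 3 mice were too small for a test of single outlying samples.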

How the results depend on the processing

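Several counts of members called moved by over 1.5 times under the alternatives run. Leaving out each array in turn, members called between KO and WT on HFD numbered 14 to 23 in fat (21 with all arrays) and 3 to 5 in liver (7), and on ND 0 in fat throughout (0) and 0 to 2 in liver (3). Between diets they numbered 25 to 27 in KO fat (26), 20 to 23 in WT fat (23), 5 to 8 in KO liver (10) and 4 to 9 in WT liver (11). The interaction had 5 to 17 in fat (12) and 1 to 2 in liver (2), and the difference between tissues 9 to 17 (13).

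Without the WT ND fat arrays of mice 686 and 690 the count was 14 for the diet in WT fat and 3 for the interaction in fat, and without the arrays of mice 427 and 547 the interaction count was 18. Liver counts were 1 on ND without the filter and with only the arrays compared, 4 for the diet in KO and 6 for the diet in WT with the mean of probe sets, 3 for the diet in WT with only the arrays compared, and 1 for the interaction without the filter. The signs that changed were those of Psap between diets in WT fat (-0.0912) and Atp6v1h between diets in KO and WT liver (0.0963 and 0.0897), all with the mean of probe sets, and Lamp2 on ND in liver, at 0.27 after quantile normalization and 0.15 with the probe set brightest over both tissues. Why these counts and signs moved was not tested beyond what fewer arrays or genes imply.

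With mouse as a replicate block (consensus correlation 0.0629), 13 members were called between tissues, as without it, and no member's call changed. Signal over background limited Trem2 and Tfeb in liver, which were not tested there. Calls kept under every alternative numbered 11 of 21 for KO against WT fat on HFD, 23 of 26 for the diet in KO fat, 13 of 23 for the diet in WT fat and 3 of 7 for KO against WT liver on HFD.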
